A study of Mus musculus with 11 samples.

Results

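Interferon-stimulated genes are genes whose transcription rises when a cell senses interferon. Here 43 of them were followed in mouse primary neonatal lung fibroblasts, the collagen-producing cells of the lung's connective tissue. They were chosen by gene symbol from a list drawn up with earlier results of these data known. All 43 were found among the 32868 gene symbols of the table, and 40 passed the filter on low counts that left 10731 genes for testing. Mx1, Oas2 and Oas3 did not pass. The study sorted lung fibroblasts of wild-type (WT) and PAD2KO neonates by flow cytometry and sequenced their RNA in bulk. The label PAD2KO stands for a knockout of Padi2, which encodes peptidylarginine deiminase 2, an enzyme that converts arginine in proteins to citrulline. The labels place the 11 libraries in a batch 1 of 3 WT (WT1, WT3 and WT4) and 3 PAD2KO (PAD2KO1, PAD2KO2 and PAD2KO3) libraries, and a batch 2 of 3 WT (WT5, WT6 and WT7) and 2 PAD2KO (PAD2KO6 and PAD2KO7) libraries. The sources used here do not say what set the batches apart, nor do they give the mouse strain, the way the gene was deleted, or the age beyond neonatal. The series title speaks of basal and TNF-induced expression, but the sample labels assign TNF to no library.

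Type I interferons bind a receptor pair, IFNAR1 and IFNAR2, and the kinases JAK1 and TYK2 then activate STAT proteins. STAT2 joins IRF9 in a complex that binds a DNA element called ISRE, while an element called GAS serves mainly the response to interferon gamma. The induced proteins sense viral RNA, block viral replication, attack intracellular pathogens, or feed back on the signal. Fibroblasts respond to interferons and can also make interferon beta, and many of these genes keep a low level of expression in resting cells.

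The promoters show how the interferon element is shared by members of different function. Of the 43 genes, 32 had a promoter in RefSeq's table (GRCm38.p6; 250 bases before to 50 after the transcription start). The ISRE was searched as GAAANNGAAA and the GAS element as TTCNNNGAA, on both strands, with overlapping matches counted. The ISRE letters were in the window of 16 of the 32 genes (50%), against 3.99% of all 27025 gene symbols and 3.44% of all 32851 windows of that length. The GAS letters were in 8 of the 32 (25%), against 9.55% of all symbols and 8.3% of all windows. The 160 bases before the start are shown for 8 members with the ISRE letters in those bases and for Ifi44, whose differences are among those with the smallest p-values below and whose window lacks them. Sequences run 5′ to 3′ on the gene's strand, and capitals mark the ISRE letters or their reverse complement.
Ifit1, chr19:34640729-34640888, plus strand: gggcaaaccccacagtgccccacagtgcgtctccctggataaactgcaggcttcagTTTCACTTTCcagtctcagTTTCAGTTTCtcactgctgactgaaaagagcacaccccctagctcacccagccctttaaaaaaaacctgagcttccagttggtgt
Ifit3, chr19:34583369-34583528, plus strand: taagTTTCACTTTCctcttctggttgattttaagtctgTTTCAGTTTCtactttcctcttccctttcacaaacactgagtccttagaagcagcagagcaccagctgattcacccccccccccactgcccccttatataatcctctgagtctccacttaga
Isg15, chr4:156200819-156200978, minus strand: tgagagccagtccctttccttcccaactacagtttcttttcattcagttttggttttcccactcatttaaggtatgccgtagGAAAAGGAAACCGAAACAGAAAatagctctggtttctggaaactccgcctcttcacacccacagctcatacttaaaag
Bst2, chr8:71537473-71537632, minus strand: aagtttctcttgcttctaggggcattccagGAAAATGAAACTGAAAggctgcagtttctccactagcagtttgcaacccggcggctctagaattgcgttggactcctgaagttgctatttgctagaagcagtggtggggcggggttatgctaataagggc
Rsad2, chr12:26456453-26456612, minus strand: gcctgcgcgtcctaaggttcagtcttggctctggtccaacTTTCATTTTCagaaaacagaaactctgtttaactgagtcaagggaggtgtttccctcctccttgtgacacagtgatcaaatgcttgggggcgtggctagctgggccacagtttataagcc
Irgm1, chr11:48871421-48871580, minus strand: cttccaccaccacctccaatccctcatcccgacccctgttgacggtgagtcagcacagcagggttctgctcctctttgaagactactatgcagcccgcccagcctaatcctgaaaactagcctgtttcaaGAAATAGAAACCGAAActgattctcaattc
Gbp3, upstream of its 2 listed starts, chr3:142559884-142560043, plus strand: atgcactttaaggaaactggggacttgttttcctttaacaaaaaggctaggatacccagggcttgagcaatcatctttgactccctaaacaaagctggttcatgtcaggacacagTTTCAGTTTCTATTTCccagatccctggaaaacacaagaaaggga
Gbp7, chr3:142530176-142530335, plus strand: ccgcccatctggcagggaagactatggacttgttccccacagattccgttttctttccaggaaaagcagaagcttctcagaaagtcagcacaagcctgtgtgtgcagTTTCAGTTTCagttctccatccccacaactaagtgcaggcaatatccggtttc
Ifi44, chr3:151749911-151750070, minus strand: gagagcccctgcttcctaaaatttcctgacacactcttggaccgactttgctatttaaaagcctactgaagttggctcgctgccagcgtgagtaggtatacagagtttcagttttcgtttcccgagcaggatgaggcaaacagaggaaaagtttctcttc
In Isg15, 3 matches overlap and begin at -78, -72 and -66 counted from the start. The ISRE letters lie close to the start in Irgm1 (-30 and -24) and Gbp3 (-45 and -39), and farther from it in Bst2 (-130 and -124) and Rsad2 (-120). A match describes letters and is not evidence of binding. The search asked for exact letters and spacing, so a window without a match may still hold a similar element. In Ifi44 the stretch tttcagttttcgtttc repeats the block TTTC at other spacings, which the search does not count.

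Named genes took 962633 counts (WT7) to 1421243 counts (PAD2KO2) per library. CPM are counts per 1000000 counts of the genes tested, scaled between libraries. On that scale 3 counts, the limit that 0 counts allow, were 2.10 (PAD2KO2) to 3.20 CPM (WT7). These limits cover counting error only. All 11 markers of fibroblasts were detected, the summed markers of lymphocytes were at most 4.21 CPM and those of endothelium at most 12.8 CPM in any library. Other lists reached more: epithelium 41.7 CPM (PAD2KO6), mesothelium 264 CPM (WT3), and smooth muscle and pericytes 8481 CPM (PAD2KO2). Leukocyte markers summed to 7.01 to 20.7 CPM in batch 1 and to 30.3 to 67.1 CPM in batch 2. WT7 stood apart: its 12 macrophage and dendritic cell markers summed to 269.6 CPM, against 17.6 to 86.7 CPM in the other 10 libraries. It also had both Xist (136 CPM) and 4 Y-linked genes (summed to 88.5 CPM). The Y-linked genes summed to 191 to 234 CPM in WT3, WT4, PAD2KO1 and PAD2KO2 and to 5.91 to 14.2 CPM in the other 6 libraries, so the batches differed in this as well. Padi2 had 12 counts over all 11 libraries: it was at 0 in WT1, WT3, WT4, WT7, PAD2KO2 and PAD2KO6, at 0.734 and 1.58 CPM in WT5 and WT6, and at 0.798, 2.96 and 3.17 CPM in PAD2KO1, PAD2KO3 and PAD2KO7. It was thus no lower in the libraries labelled PAD2KO than in WT and does not check the labels, on which every direction below rests. A list of 25 genes that respond to TNF and NF-kB summed to 1244 to 1483 CPM in batch 1. It reached 5770, 6810 and 8131 CPM in WT and 5079 and 1973 CPM in PAD2KO of batch 2. Whether each library stands for its own animal is not stated, and the p-values therefore reflect library-to-library spread, which may be technical.

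In batch 2 the interferon-stimulated genes were lower in PAD2KO than in WT fibroblasts, and in batch 1 no difference passed the test. Of the 40 genes tested in batch 2, 27 fell (edgeR's quasi-likelihood test with Benjamini-Hochberg adjustment over all genes, threshold 0.05) and none rose, where 2.92% of all genes were called in either direction and 1.64% were called lower. With length offsets 14 genes were called, 13 of them among the 27. For 8 of the 40 (Dhx58, Isg15, Ifit3b, Oas1a, Oasl1, Mx2, Rsad2 and Cmpk2) the counts outside WT of batch 2 were too low to pass the filter. They were tested only because WT of batch 2 was high, so their direction was fixed by the filter, and counts and medians that include them describe the values and support nothing. Of the other 32 genes, which pass the filter without WT of batch 2, 22 fell, against 1.58% of the 10469 genes that pass it likewise. The 32 fold changes were all below 0, from -3.31 for Irf7 to -0.04 for Ifi27, with a median of -1.54 on the log2 scale against -0.01 over all genes tested. Both PAD2KO libraries lay below all 3 WT libraries for 30 of the 32 genes and for 38 of the 40, as they did for 15.4% of all genes. In bulk RNA, fewer cells that express a gene and less RNA per cell cannot be told apart. Without PAD2KO7, 11 of the 27 calls were kept, and PAD2KO6 then stood alone and was assumed to vary like the other groups. Without WT7, 18 of the 27 were kept, and Ifit3 and Irf7 were called in addition.

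In batch 1, 0 of the 40 genes passed the threshold, where 0.112% of all genes did. DESeq2 and limma-voom also called none, and 1 gene, Iigp1, had an unadjusted p under 0.05 by edgeR. The median log2 fold change was -0.03, 19 genes were above 0 and 21 below, and the values ran from -0.83 (Rtp4) to 0.82 (Rsad2). The PAD2KO libraries lay wholly below WT for 2 genes and wholly above for 2, against 5.85% and 5.53% of all genes. The difference between the batches was tested directly as the PAD2KO effect in batch 2 minus that in batch 1. It was below 0 and past the threshold for 10 of the 40 genes and above 0 for none, where 1.44% of all genes passed and 0.848% did so below 0. All 10 are among the 32 genes that pass the filter without WT of batch 2. This count depends on the processing: with length offsets 2 genes were called, of which only Ifit1 is among the 10, and with no count filter 22 were called, all 10 among them. Without PAD2KO7, of the 10 genes only Ifi44 kept this call. Leaving out WT1, WT4 or PAD2KO2 kept 6 of the 10 calls, and leaving out PAD2KO3 kept 5.

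**Figure D1:**
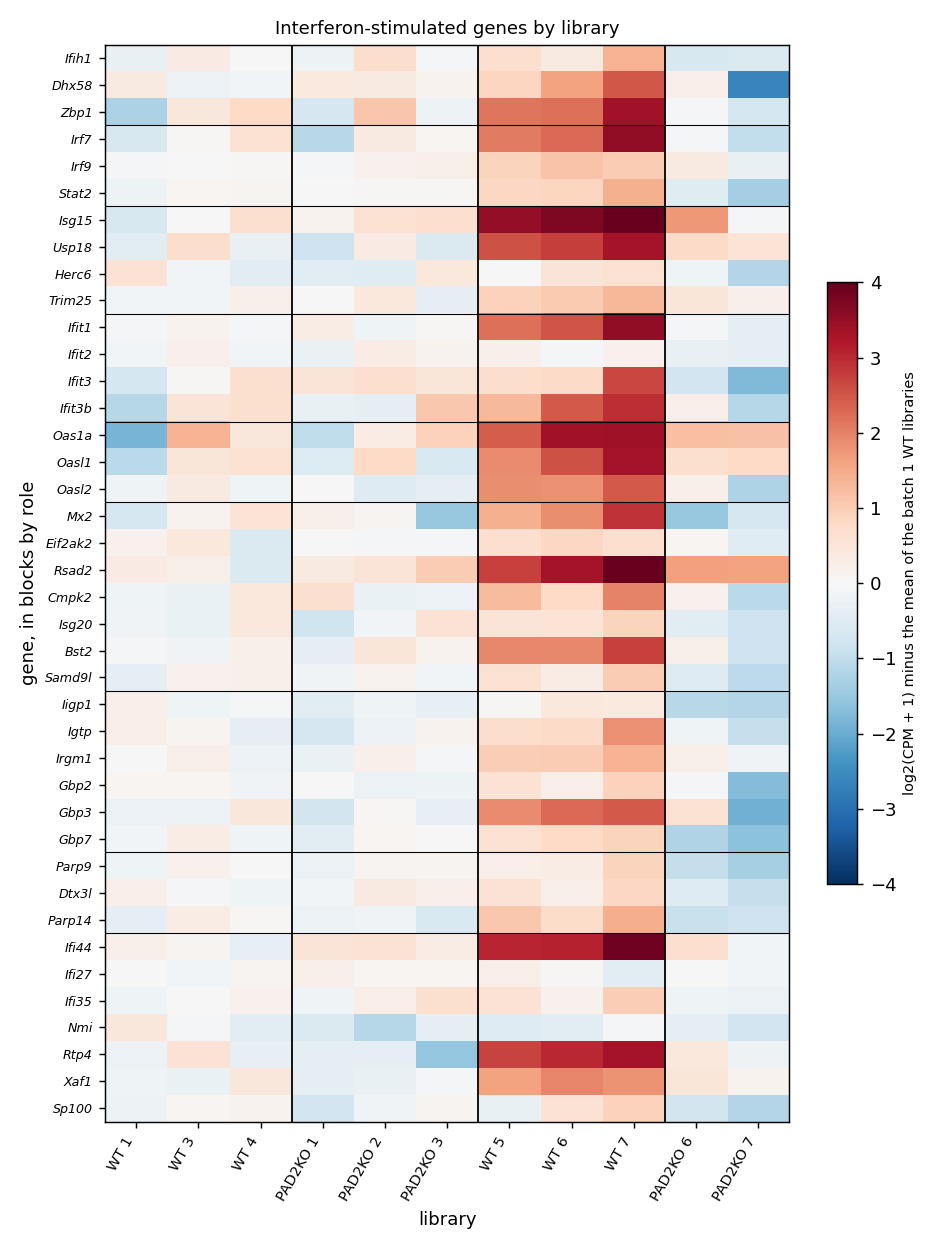
Each row is 1 of the 40 interferon-stimulated genes tested, in blocks by role, and each column is 1 library. Colour gives log2(CPM + 1) minus the mean of the 3 WT libraries of batch 1. WT5, WT6 and WT7 are red in most rows, WT7 most strongly, whereas PAD2KO6 and PAD2KO7 are pale or blue.

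The mean over the 40 genes of log2 CPM, centred on the 11 libraries, sums up the pattern without a test. It was -0.52, -0.20 and -0.25 in WT and -0.54, -0.22 and -0.33 in PAD2KO of batch 1, which overlap. In batch 2 it was 0.83, 0.98 and 1.55 in WT and -0.35 and -0.95 in PAD2KO, which do not. Over the 32 genes that pass the filter without WT of batch 2, it was 0.78, 0.84 and 1.35 in WT and -0.39 and -0.96 in PAD2KO of batch 2, and -0.49 to -0.13 in batch 1. WT7 was the highest of the 11 libraries for 33 of the 40 genes and 25 of the 32, as it was for 14.2% of all genes. PAD2KO7 was the lowest of the 11 for 21 of the 40 and 19 of the 32, as it was for 11.5% of all genes. The level in WT7 over the mean of WT5 and WT6 had a median of 1.51 over the members and 0.998 over all genes. WT7 is also the library with the high macrophage markers: Lyz2 was at 163 CPM and Adgre1 at 44.8 CPM there, while Siglech was at 0 in every library. Their part in the result was not tested. WT5 and WT6 had summed macrophage markers of 47.0 and 75.0 CPM.

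**Figure D2:**
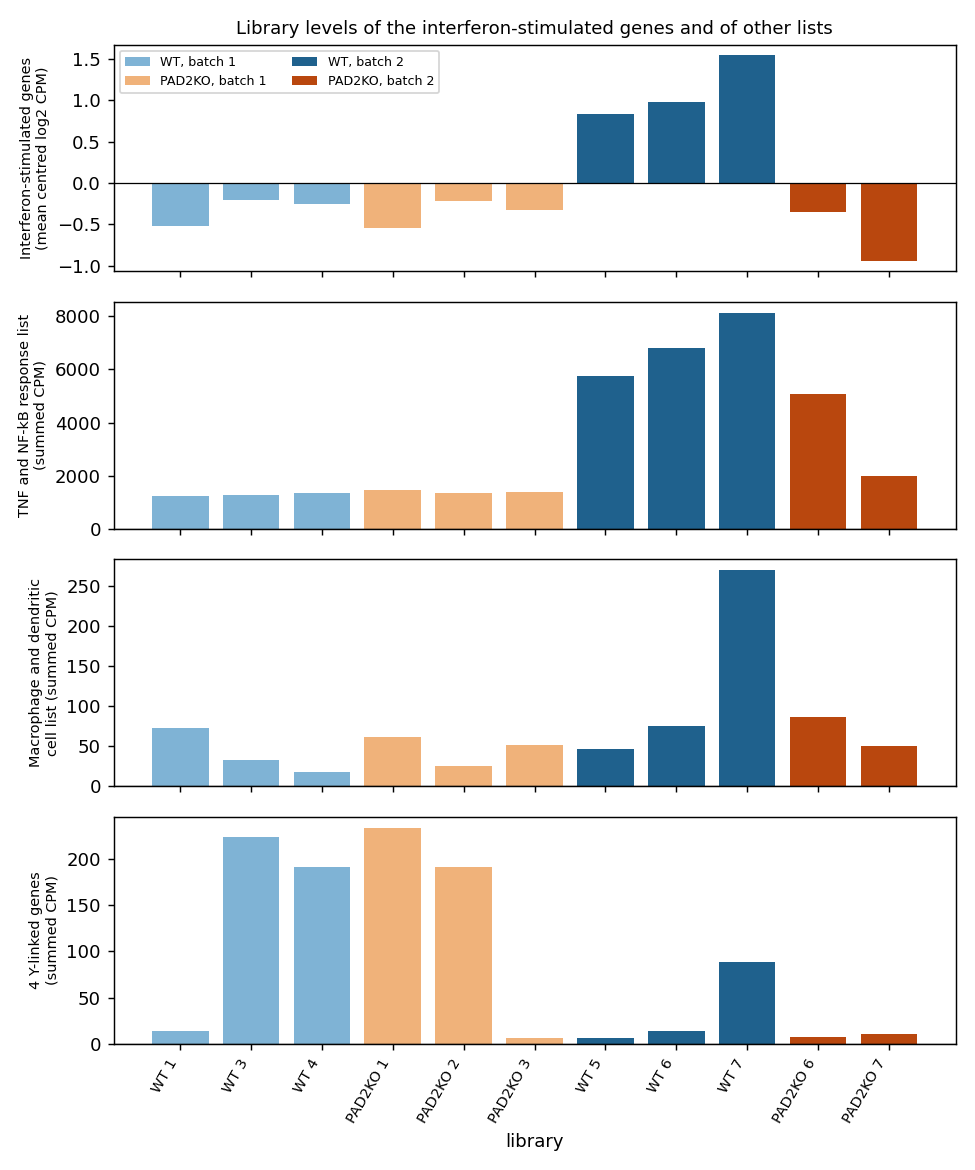
Bars give, for each library, the mean centred log2 CPM of the 40 interferon-stimulated genes, and the summed CPM of the TNF and NF-kB response list, of the macrophage and dendritic cell markers and of 4 Y-linked genes. The interferon-stimulated genes stand above 0 in WT5, WT6 and WT7 only, and the macrophage markers reach 269.6 CPM in WT7.

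All 3 RNA sensors fell in PAD2KO of batch 2. Ifih1 and Zbp1 pass the filter without WT of batch 2, whereas the filter fixed the direction of Dhx58. Ifih1 encodes MDA5, which detects long double-stranded RNA. In CPM, and in the library order given above, it read 15.7, 25.1 and 19.2 in WT and 16.8, 32.3 and 18.5 in PAD2KO of batch 1, then 31.6, 25.3 and 53.3 in WT and 12.3 and 12.7 in PAD2KO of batch 2. The groups of batch 2 did not overlap, and the log2 fold change was -1.51 (SE 0.36, adjusted p = 0.019). Dhx58 encodes LGP2, a helper of the RNA sensors. It read 7.06, 4.30 and 4.81 against 7.18, 7.01 and 5.91 in batch 1, and 10.3, 18.2 and 34.1 in WT against 6.54 and 0 in PAD2KO of batch 2, a log2 fold change of -2.60 (SE 0.67, adjusted p = 0.035). PAD2KO7 had no count there, and PAD2KO6 lay within the range of batch 1. Zbp1, a sensor of Z-form nucleic acid named here after its values were seen, went from 34.5, 35.5 and 81.0 CPM in WT to 6.54 and 3.96 in PAD2KO of batch 2. Its log2 fold change was -3.20 (SE 0.73, adjusted p = 0.048). Without PAD2KO7 none of the 3 passed (adjusted p = 0.24, 0.41 and 0.46), and without WT7 Ifih1 and Dhx58 did not (adjusted p = 0.085 and 0.12).

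Of the 3 transcription factors, Stat2 and Irf9, both parts of the complex that binds the ISRE, fell. Stat2 read 29.8, 36.5 and 37.6 CPM in WT and 34.3, 35.8 and 35.5 in PAD2KO of batch 1, which overlap closely. In batch 2 it was 61.7, 64.0 and 93.8 in WT and 24.5 and 12.7 in PAD2KO, with a log2 fold change of -1.95 (SE 0.26, adjusted p = 3.53e-05). WT rose and PAD2KO fell relative to their own batch 1 groups, by 1.05 (adjusted p = 0.00033) and -0.92 (adjusted p = 0.022) on the log2 scale. The difference of the effect was -1.98 (adjusted p = 0.0018), and without PAD2KO7 it was -1.57 (adjusted p = 0.057). Irf9 read 43.1, 44.4 and 46.4 CPM in WT and 43.1, 50.5 and 52.5 in PAD2KO of batch 1, then 84.4, 100.3 and 91.6 in WT and 58.1 and 36.5 in PAD2KO of batch 2. Its 3 WT libraries of batch 2 lay close together and above all others, and the PAD2KO libraries of batch 2 spread around the batch 1 level. The log2 fold change in batch 2 was -0.96 (SE 0.19, adjusted p = 0.0036), but without PAD2KO7 it was -0.66 (adjusted p = 0.29). Irf7, the regulator that amplifies interferon production, had a large but uneven difference that did not pass. It was at 72.7, 83.7 and 202 CPM in WT and 15.5 and 7.93 in PAD2KO of batch 2, a log2 fold change of -3.31 (SE 0.70, adjusted p = 0.056). DESeq2 did call it.

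The ISG15 system attaches a ubiquitin-like protein to other proteins and removes it again. Isg15, the modifier itself, read 2.35, 4.30 and 7.21 CPM in WT and 4.79, 7.01 and 7.39 in PAD2KO of batch 1, a few counts each. In batch 2 it reached 58.7, 68.7 and 135 in WT and 16.4 and 3.96 in PAD2KO, a log2 fold change of -3.08 (SE 0.51, adjusted p = 0.0064). The gain of WT in batch 2 over batch 1 was the largest of any member, 4.19 on the log2 scale (SE 0.50, adjusted p = 5.98e-05). Isg15 passes the count filter only through WT of batch 2. The direction of both differences was therefore fixed, and their p-values support nothing. Isg15 is the one member that lies on Padi2's chromosome, chromosome 4, in RefSeq's annotation. Usp18, the protease that removes ISG15 and restrains receptor signalling, read 11, 25.1 and 12.0 against 7.98, 18.9 and 9.61 CPM in batch 1, and 93.2, 107 and 161 against 26.2 and 22.2 in batch 2. Its log2 fold change was -2.29 (SE 0.33, adjusted p = 0.0011), and without PAD2KO7 it was -2.17 (adjusted p = 0.061). Both PAD2KO libraries of batch 2 lay above the 3 PAD2KO libraries of batch 1 for Usp18, a difference that did not pass the test (0.96, adjusted p = 0.14). The ligases Herc6 and Trim25 did not pass in batch 2, with log2 fold changes of -1.06 (adjusted p = 0.30) and -0.76 (adjusted p = 0.062).

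In the IFIT family, whose proteins bind viral RNA and block its translation, 1 of 4 genes passed. Ifit1 read 12.5, 15 and 12.8 CPM in WT and 16.8, 11.9 and 14.0 in PAD2KO of batch 1. In batch 2 WT stood at 65.3, 82.1 and 168, whereas PAD2KO stayed at 13.1 and 10.3, near the batch 1 level. The log2 fold change was -3.13 (SE 0.41, adjusted p = 0.00065), and it passed without PAD2KO7 (-2.96, adjusted p = 0.039). Ifit3 did not pass with the WT libraries as they stood. WT of batch 2 read 26.4, 27.6 and 107 CPM, WT5 and WT6 close to the 22.9 to 25.9 of PAD2KO in batch 1. PAD2KO of batch 2 had 9.0 and 3.96, and the log2 fold change was -2.96 (SE 0.89, adjusted p = 0.17). It was called without WT7, by DESeq2 and with a replicate block. Its copy Ifit3b, whose direction the filter fixed, had 2 counts in PAD2KO and 35 in WT of batch 2. The ratio was 0.082 (95% exact interval 0.0096 to 0.32, for counting error only). By edgeR's test Ifit3b did not pass (log2 fold change -3.50, adjusted p = 0.058). Reads from such near-identical copies may be split between them by the counting, so the single values are uncertain. Ifit2 moved little, at 29.4, 24.5 and 28.8 CPM in WT and 20.4 and 19.0 in PAD2KO of batch 2, against 20.7 to 31.6 in batch 1 (log2 fold change -0.48, adjusted p = 0.46).

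The OAS family makes or resembles the enzymes that make oligoadenylates, which switch on RNase L. Of its 5 genes 3 were tested and 2 fell. Only Oasl2 passes the filter without WT of batch 2, and the filter fixed the direction of Oasl1 and Oas1a. Oasl2 read 22.7, 33.0 and 22.4 CPM in WT and 25.5, 17.5 and 19.2 in PAD2KO of batch 1, then 96.1, 93.2 and 145 against 29.4 and 10.3 in batch 2. WT5 and WT6 agreed here to within a few CPM and lay well above every library outside their group. The log2 fold change was -2.47 (SE 0.32, adjusted p = 0.00014) and remained past the threshold without PAD2KO7 (-1.90, adjusted p = 0.0015). Oasl1 was at 13.2, 21.3 and 37.3 CPM in WT and 4.91 and 5.55 in PAD2KO of batch 2, after 0.784 to 5.61 in batch 1 (log2 fold change -2.13, SE 0.54, adjusted p = 0.029). Without PAD2KO7 its adjusted p was 0.28 and without WT7 it was 0.16. Oas1a did not pass (-2.05, SE 0.61, adjusted p = 0.098), with 18.3, 36.3 and 37.3 CPM in WT and 7.36 and 7.13 in PAD2KO of batch 2. Oas2 had 16 counts over the 3 WT libraries of batch 2 and 0 over both PAD2KO libraries. With 3 counts taken as the limit for the PAD2KO group, WT was 3.71-fold higher. That value leaves out counting error in WT and the spread between libraries, and Oas2 did not pass the filter to be tested. Oas3 had 6 and 2 counts, too few to compare.

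Among 8 other antiviral effectors 7 were tested and 5 fell. Of the 4 that pass the filter without WT of batch 2, 3 fell. The filter fixed the direction of Rsad2, Mx2 and Cmpk2. Bst2, or tetherin, holds budding virus on the cell surface. It read 44.7, 42.3 and 54.5 CPM in WT and 36.7, 65.9 and 51.7 in PAD2KO of batch 1. In batch 2 WT stood at 179.8, 182 and 319 and PAD2KO at 54.8 and 26.2, with a log2 fold change of -2.47 (SE 0.39, adjusted p = 0.014). On the scale of TPM, transcript abundance corrected for length and library total, the group means of Bst2 were 104, 117, 459 and 84.9 in WT and PAD2KO of batch 1 and WT and PAD2KO of batch 2. The 459 TPM in WT of batch 2 were the highest mean level of any member in any group. Rsad2, or viperin, makes a chain-ending nucleotide; it read 0.801 to 4.43 CPM throughout batch 1, then 16.9, 26.1 and 48.0 against 7.36 and 7.13 in batch 2. The log2 fold change was -2.01 (SE 0.44, adjusted p = 0.0086). Both PAD2KO libraries of batch 2 were above all of batch 1 for Rsad2. Samd9l, a restriction factor that acts on translation, was at 37.4, 30.0 and 49.0 CPM in WT and 16.4 and 11.1 in PAD2KO of batch 2, against 18 to 28 in batch 1. Its log2 fold change was -1.48 (SE 0.30, adjusted p = 0.0042), and the PAD2KO libraries were below all of batch 1. Mx2, a dynamin-like GTPase, had 40 counts in WT and 1 in PAD2KO of batch 2, a ratio of 0.036 (95% exact interval 0.00089 to 0.21). The interval covers counting error only, and the fitted -4.55 (adjusted p = 0.014) depends on the prior count. Eif2ak2, which encodes the kinase PKR and is named after its values were seen, showed a smaller fall, from 49.2, 54.5 and 49.0 CPM in WT to 31.9 and 21.4 in PAD2KO of batch 2 (-0.94, SE 0.25, adjusted p = 0.039). Without PAD2KO7 none of these 5 passed (Bst2 adjusted p = 0.12, Rsad2 0.16, Samd9l 0.20, Mx2 0.14 and Eif2ak2 0.55). Without WT7 the values of Rsad2 and Eif2ak2 were 0.089 and 0.067, and Mx2 had too few counts to be tested. Cmpk2 and Isg20 did not pass in batch 2, with log2 fold changes of -2.08 and -1.38, and Mx1 had 3 counts in all 11 libraries together.

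All 6 inducible GTPases, from families that take part in the defence against intracellular pathogens, fell in PAD2KO of batch 2. Iigp1 was among the most even of the members: 132, 101 and 111 CPM in WT and 84.6, 101 and 90.2 in PAD2KO of batch 1, then 118, 152 and 149 in WT and 52.4 and 49.9 in PAD2KO of batch 2. In batch 1 the PAD2KO libraries also lay below WT, narrowly, and the difference did not pass (-0.31, SE 0.14, adjusted p = 0.85). WT of batch 2 overlapped WT of batch 1 (0.28 on the log2 scale, adjusted p = 0.14), whereas both PAD2KO libraries of batch 2 lay below all others. The log2 fold change was -1.44 (SE 0.17, adjusted p = 4.99e-06), and it passed without PAD2KO7 (adjusted p = 0.00092) and without WT7 (1.86e-05). Gbp7 moved both ways, with 10.4 to 17.9 CPM in batch 1, then 22.8, 26.1 and 27.7 in WT and 5.73 and 3.96 in PAD2KO of batch 2 (-2.37, SE 0.38, adjusted p = 0.00038). Between batches it rose by 0.78 in WT (adjusted p = 0.039) and fell by 1.47 in PAD2KO (adjusted p = 0.013) on the log2 scale. Irgm1 behaved otherwise: 61.1, 70.2 and 50.5 CPM in WT and 49.5, 69.4 and 56.9 in PAD2KO of batch 1, then 119.6, 123 and 159 against 70.3 and 53.9. Here WT of batch 2 was raised and PAD2KO of batch 2 overlapped batch 1, with a log2 fold change between genotypes of -1.10 (SE 0.18, adjusted p = 0.00058). Gbp3 split the PAD2KO libraries, at 27.8 and 3.96 CPM against 68.3, 90.0 and 102 in WT of batch 2 and 10.4 to 24.8 in batch 1 (-2.44, SE 0.48, adjusted p = 0.024). Gbp2 split them as well, at 40.1 and 11.9 CPM against 63.1, 49.8 and 81.0 (-1.30, SE 0.32, adjusted p = 0.035). Igtp read 26.4, 27.6 and 58.6 CPM in WT and 13.9 and 7.93 in PAD2KO of batch 2, after 9.58 to 19.6 in batch 1 (-1.73, SE 0.39, adjusted p = 0.012). Without PAD2KO7 the calls of Irgm1 (adjusted p = 0.065), Gbp2 (0.47) and Igtp (0.31) were lost, and without WT7 those of Gbp2 (0.098), Gbp3 (0.064) and Igtp (0.059).

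The 3 genes of ADP-ribosylation all fell. Parp9 and Dtx3l encode partners in a complex of a PARP and a ubiquitin ligase, and Parp14 a related enzyme. Parp9 read 34.5, 44.4 and 39.2 CPM in WT and 33.5, 42.8 and 42.1 in PAD2KO of batch 1, a fold change of 0.00 on the log2 scale. WT of batch 2 had 47.7, 48.2 and 73.5 and PAD2KO 19.6 and 15.1, with -1.68 (SE 0.26, adjusted p = 0.00025). Dtx3l followed with 20.8 to 30.2 CPM in batch 1, then 36.0, 27.6 and 42.6 against 16.4 and 11.9 (-1.31, SE 0.29, adjusted p = 0.0099). For both genes the PAD2KO libraries of batch 2 were below every other library, and the fall of PAD2KO between batches passed the test (-1.19, adjusted p = 0.0023, and -0.90, adjusted p = 0.035), while the rise of WT did not (adjusted p = 0.082 and 0.089). Parp14 read 35.2, 27.6 and 45.8 CPM in WT and 8.18 and 8.72 in PAD2KO of batch 2, against 10.3 to 20.1 in batch 1 (-2.07, SE 0.34, adjusted p = 0.00041). Without PAD2KO7 Dtx3l was not called (adjusted p = 0.28).

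Of 7 other induced proteins 3 fell. Ifi44, an induced cytoplasmic protein, read 6.27, 5.73 and 4.0 CPM in WT and 7.98, 8.42 and 6.65 in PAD2KO of batch 1. WT of batch 2 had 50.6, 51.3 and 91.6, and PAD2KO 9.0 and 4.76, within or close to the batch 1 range. The log2 fold change was 0.51 (SE 0.43, adjusted p = 0.96) in batch 1 and -3.19 (SE 0.35, adjusted p = 2.54e-06) in batch 2. Rtp4, a chaperone of membrane receptors that also limits viral replication, read 7.06, 12.9 and 6.41 CPM in WT and 6.38, 6.31 and 2.22 in PAD2KO of batch 1. It reached 60.2, 75.0 and 92.7 in WT of batch 2, whereas PAD2KO had 11.5 and 7.13 (-3.01, SE 0.33, adjusted p = 2.54e-06). Ifi44 and Rtp4 kept their calls without PAD2KO7 (adjusted p = 0.00076 and 0.00069) and without WT7 (8.9e-06 for both). Xaf1, a cell death factor, was even within WT of batch 2 at 37.4, 47.4 and 42.6 CPM, against 16.4 and 12.7 in PAD2KO and 8.78 to 16 in batch 1. Its log2 fold change was -1.54 (SE 0.29, adjusted p = 0.0019), and -1.37 (adjusted p = 0.11) without PAD2KO7. Ifi27 was high and level in all groups, with 145, 125 and 90.6 CPM in WT and 124 and 113 in PAD2KO of batch 2 after 111 to 139 in batch 1; WT7, the highest library for most members, was the lowest here. Ifi35, Nmi and Sp100 had log2 fold changes of -0.81, -0.26 and -1.54 that did not pass (adjusted p = 0.094, 0.90 and 0.085).

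**Figure D3:**
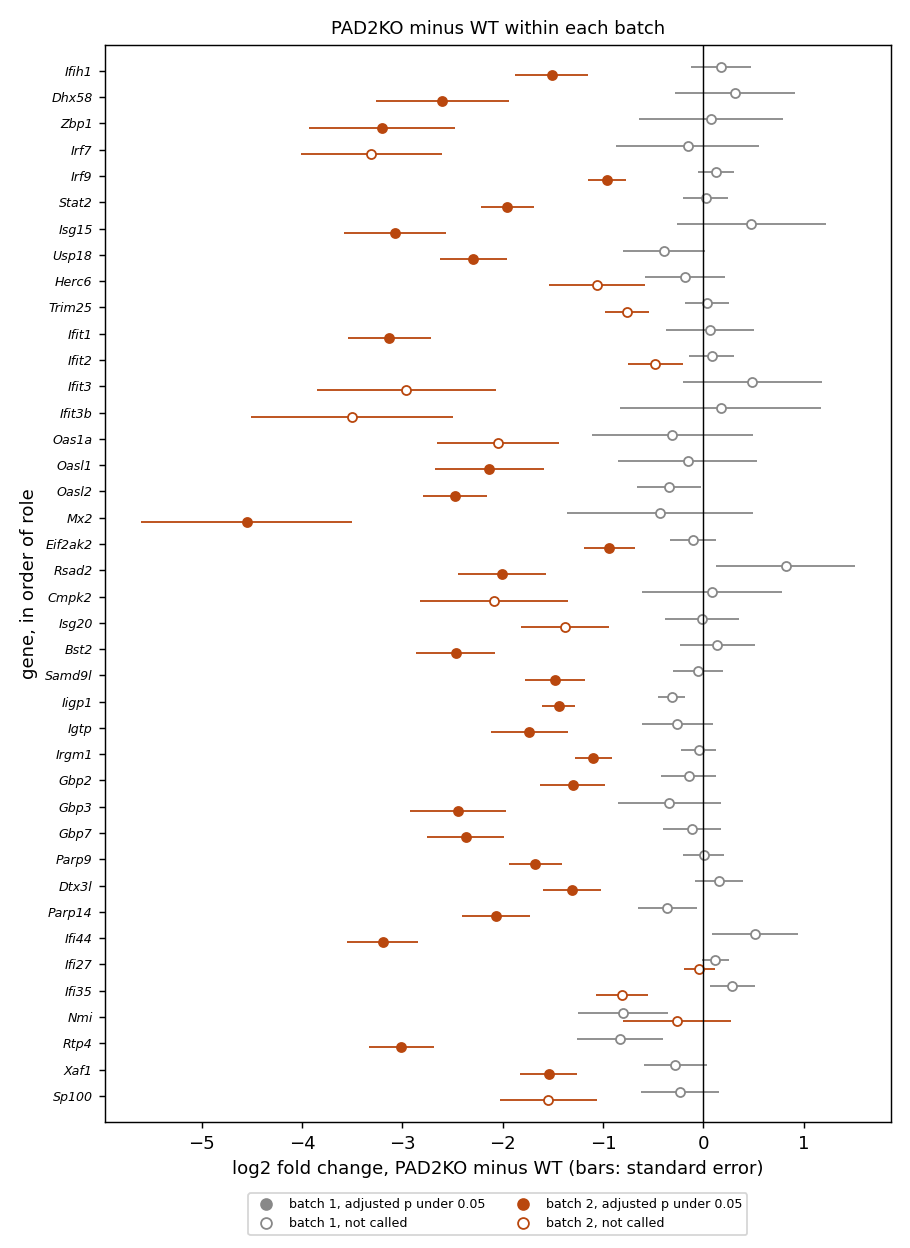
Points give the log2 fold change of PAD2KO against WT for each of the 40 genes tested, in batch 1 (grey) and batch 2 (orange), bars the standard error, and filled points an adjusted p under 0.05. Batch 1 values lie around 0, and the batch 2 values lie left of 0. For Dhx58, Isg15, Ifit3b, Oas1a, Oasl1, Mx2, Rsad2 and Cmpk2 the count filter fixed that direction.

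The comparison between batches within each genotype shares its libraries with the comparisons of genotypes, so it describes the same values from another side. In WT, 26 of the 40 genes were higher in batch 2 than in batch 1 and none was lower, where 21.6% of all genes were called and 11.5% were called higher. The median log2 fold change was 1.14. Of the 32 genes that pass the filter without WT of batch 2, 19 were higher, with a median of 1.05. The 3 WT libraries of batch 2 lay above all 3 of batch 1 for 32 of the 40 genes, as for 18.6% of all genes. Of the 32 that pass the filter without WT of batch 2, this held for 24. The WT libraries of batch 2 lay above all 8 other libraries for 30 of the 40 genes and 22 of those 32, as for 4.82% of all genes. After Isg15 the largest rises were those of Rsad2 (3.97), Ifi44 (3.54), Rtp4 (3.07), Ifit1 (2.92) and Usp18 (2.86). Isg15 and Rsad2 pass the filter only through WT of batch 2, which fixed the direction of their rises. At the other end, Ifi27 (0.00), Ifit2 (0.11), Iigp1 (0.28), Herc6 (0.34) and Nmi (-0.43) did not pass.

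In PAD2KO, 5 of the 40 genes were lower in batch 2 and none was higher, where 17.4% of all genes were called and 8.3% were called lower. These were Stat2, Iigp1, Gbp7, Parp9 and Dtx3l, with log2 fold changes of -0.92, -0.85, -1.47, -1.19 and -0.90. The share of members called lower was near that of all genes, so these 5 calls say little about the members as a set. The median of the 40 was -0.44. The PAD2KO libraries of batch 2 lay wholly below those of batch 1 for 12 genes, as for 23.1% of all genes, and wholly above for 5, as for 22.1%. Without PAD2KO7 the call of Iigp1 was kept, the other 4 were lost and the median was -0.03. Without PAD2KO3, 3 of the 5 were kept. PAD2KO7 was below PAD2KO6 for 36 of the 40 genes, as for 50.5% of all genes, and its level over that of PAD2KO6 had a median of 0.692 over the members with counts in PAD2KO6. The TNF and NF-kB list was lower in PAD2KO7 than in PAD2KO6 too (1973 against 5079 CPM), and its part in the result was not tested.

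**Figure D4:**
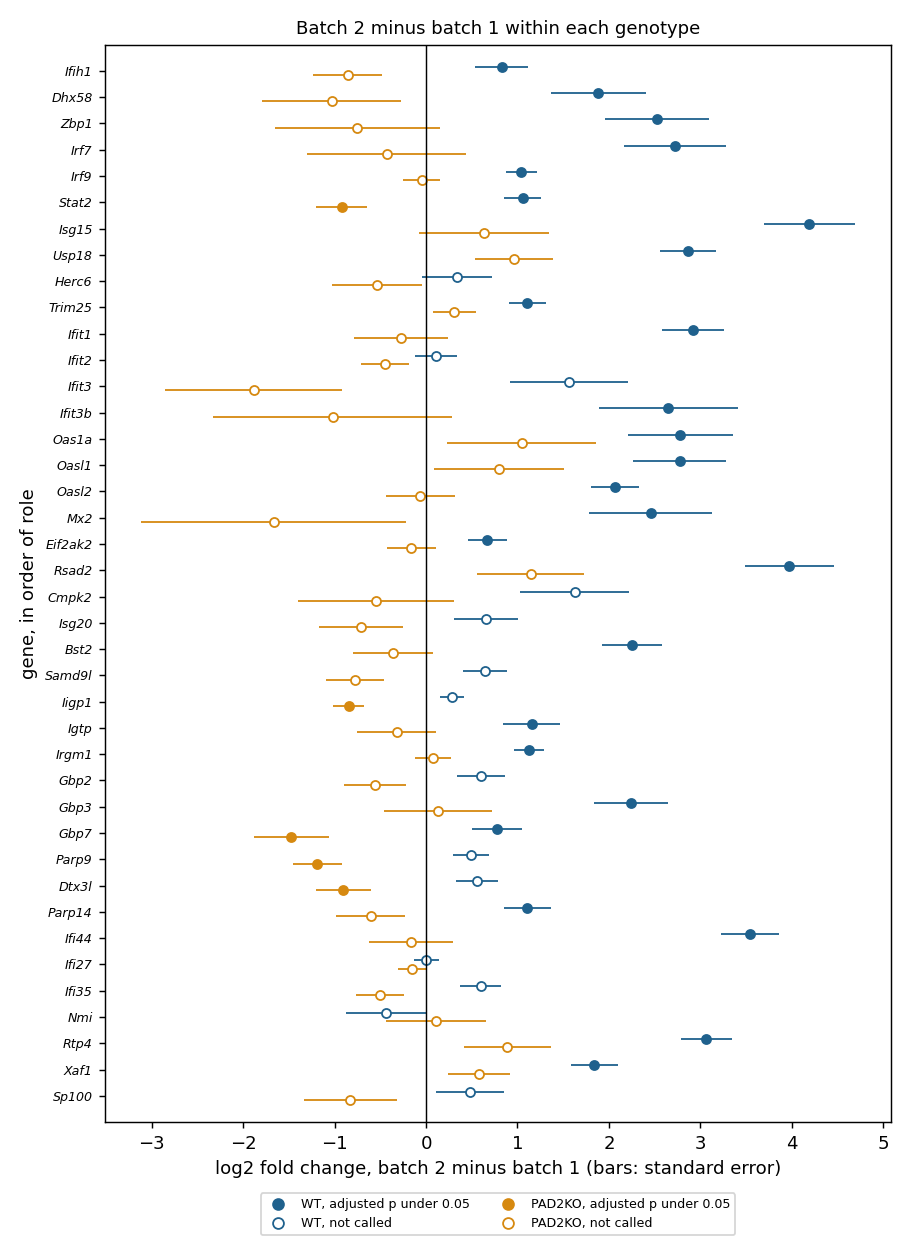
Points give the log2 fold change of batch 2 against batch 1 for each of the 40 genes tested, in WT (blue) and PAD2KO (yellow), with standard errors as bars and filled points for an adjusted p under 0.05. Of the WT values 39 lie right of 0 and the PAD2KO values scatter around it, from -1.88 for Ifit3 to 1.15 for Rsad2. For Dhx58, Isg15, Ifit3b, Oas1a, Oasl1, Mx2, Rsad2 and Cmpk2 the count filter fixed the direction in WT.

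Levels by library show 3 patterns in the members described. WT of batch 2 alone was raised for Ifit1, Oasl2, Bst2, Ifi44 and Irf9, with PAD2KO6 at or near batch 1. PAD2KO7 lay below all libraries of batch 1 for Ifit1, Oasl2, Bst2 and Irf9, at 10.3, 10.3, 26.2 and 36.5 CPM. PAD2KO of batch 2 stood apart downward for Iigp1, and mostly so for Parp9 and Dtx3l. Iigp1 was slightly lower in PAD2KO of batch 1 as well. Stat2 and Gbp7 moved both ways, and Ifit2 and Ifi27 in neither direction. These patterns were described after the values were seen. The share of members called lower between batches in PAD2KO was near that of all genes.

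**Figure D5:**
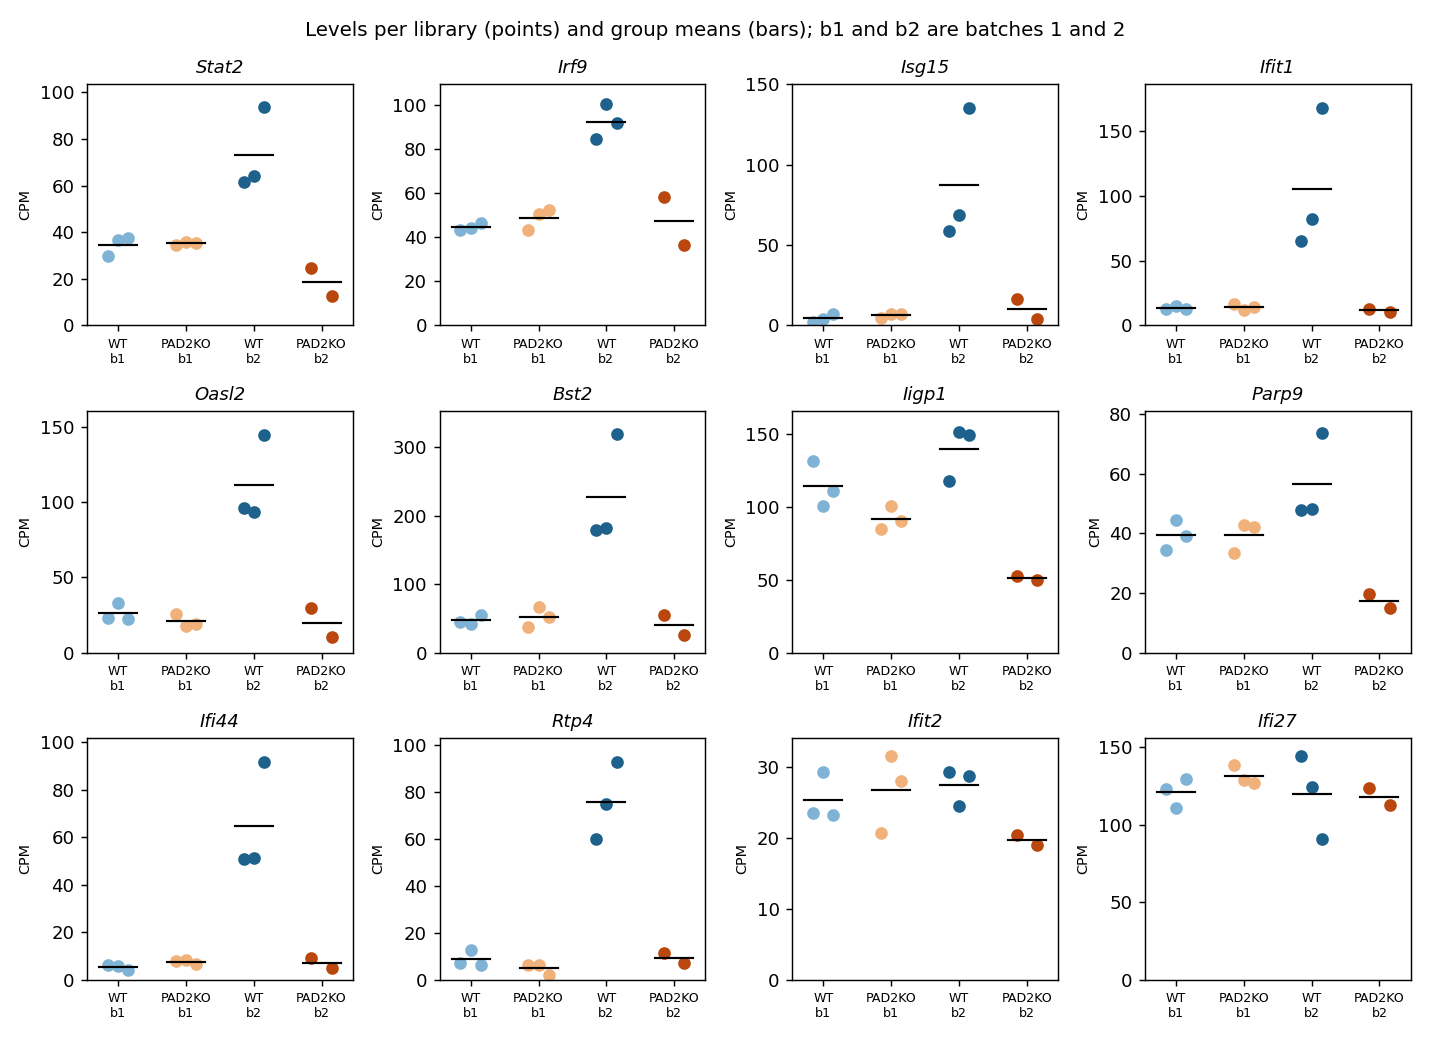
Each panel shows 1 gene, each point 1 library (CPM, axis from 0) and each bar a group mean, for WT and PAD2KO of batch 1 (b1) and batch 2 (b2). In the panels of Ifit1, Ifi44 and Bst2 only WT of batch 2 is raised, in that of Iigp1 PAD2KO of batch 2 is lowest, and those of Ifit2 and Ifi27 show overlapping or close groups.

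Interferons and their receptors and kinases were measured from lists of their own. Of 21 interferon genes, Ifnb1, all Ifna genes, Ifng and the Ifnl genes had no count in any library. That allows up to 3.20 CPM in the shallowest library. Ifnz had 25 counts over all 11 libraries and Ifnk 1. Among 9 receptor and kinase genes 8 were tested, of which 1 rose and 1 fell in PAD2KO of batch 2. Over all genes 2.92% were called in either direction. Ifnar2, a subunit of the type I interferon receptor, fell from 225, 249.6 and 250.4 CPM in WT to 175 and 95.1 (-0.84, SE 0.17, adjusted p = 0.0057). Jak2, a kinase of the interferon gamma receptor, rose from 24.2, 40.3 and 30.9 CPM in WT to 90.0 and 84.8 (1.458, SE 0.21, adjusted p = 7.1e-05). Without PAD2KO7 Jak2 kept its call (adjusted p = 0.0023) and Ifnar2 did not (0.33).

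Of 12 further genes of nucleic acid sensing tested, 3 fell in PAD2KO of batch 2 and none rose. Over all genes 1.64% were called lower. Adar, which edits double-stranded RNA, was at 46.2, 60.02 and 69.3 CPM in WT and 27.8 and 23.0 in PAD2KO (-1.19, SE 0.24, adjusted p = 0.0039). Rigi, the sensor RIG-I, was at 126, 122 and 151 against 86.7 and 65.0 (-0.81, SE 0.16, adjusted p = 0.0040), and Ifi204 also fell (-1.93, SE 0.46, adjusted p = 0.021). None of the 3 passed without PAD2KO7 (adjusted p = 0.16, 0.26 and 0.41), nor did Ifi204 without WT7 (0.059). A further list held 55 interferon-inducible genes, of which 54 were found and 38 tested. Of these 38, 14 fell in PAD2KO of batch 2 and none rose. Of its 32 genes that pass the filter without WT of batch 2, 11 fell, against 1.58% of the 10469 genes passing likewise. The median of these 32 was -1.03. The other 6 were tested only because WT of batch 2 was high, so the filter fixed their direction. In batch 1 none of the 38 passed, nor did any gene of the receptor and sensing lists, where 0.112% of all genes did. Trim30a, an antiviral member of the TRIM family, went from 31.6, 33.2 and 45.8 CPM in WT to 4.91 and 3.96 in PAD2KO (-3.01, SE 0.39, adjusted p = 2.5e-05). Uba7 and Ube2l6, the activating and conjugating enzymes for ISG15, fell by 2.03 and 1.66 on the log2 scale (adjusted p = 7.3e-05 and 0.00071). These 3 also passed without PAD2KO7 and without WT7.

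Outside the interferon lists, marker and response lists also held genes called between the genotypes in batch 2, where 2.92% of all genes were called. Of 6 genes tested of smooth muscle and pericytes, 4 rose and none fell, with a median log2 fold change of 1.38. Of 11 fibroblast markers 1 rose and 2 fell (median -0.19), of 4 mesothelium markers 1 rose (median 0.44), and of 8 genes of dissociation and stress 1 rose (median 0.11). No macrophage and dendritic cell marker of the 4 tested was called. Of 22 genes tested in the TNF and NF-kB list, Il6 (-2.13, adjusted p = 3.5e-05) and Vcam1 (-0.74, adjusted p = 0.0092) fell and Csf1 (0.84, adjusted p = 0.0032) rose. Without PAD2KO7 Vcam1 (adjusted p = 0.37) and Csf1 (0.30) were not called, nor was Vcam1 without WT7 (0.052). Acta2, the smooth muscle actin gene, read 1342, 1260 and 1116 CPM in WT and 3031 and 3948 in PAD2KO of batch 2 (1.49, SE 0.16, adjusted p = 3.3e-05). Their part in the result for the interferon-stimulated genes was not tested.

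Genes with the ISRE letters shown above were not the only ones to fall. Among members that pass the filter without WT of batch 2, 10 of 11 with a match fell in PAD2KO of batch 2. So did 6 of 14 with a promoter but no exact match, and 1.58% of all genes that pass it likewise. Ifi44 belongs to the second group. No test was made of this split.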

How the data were processed

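RNA of 11 libraries was measured by a SMARTer kit in a SmartSeq2 workflow, per the labels' protocols. The authors deposited a single table with estimated counts, TPM abundances and effective lengths for each library. The submitters' processing notes name Salmon 1.3.2, fastp, DESeq2 1.46.0 and build GRCm39, and their roles, the annotation and the use of strand are not given in the sources used here. Estimated counts divide reads between similar genes, so values of close copies (Ifit3 and Ifit3b, the Oasl, Gbp and Mx genes) are uncertain, and without strand a gene cannot be told from an antisense partner. The deposited estimated counts were summed by symbol and rounded. Entries without a symbol (3.80% to 6.40% of a library) were left out, and Rn18s took 8.52% to 12.1% of the rest. The deposited TPM values served for levels across genes and as an alternative for the members' mean, with a pseudocount of 1. Lengths entered as offsets in an alternative.

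R 4.3.3 with edgeR 4.0.16 served for the tests: TMM, filterByExpr on the 4 groups of genotype and batch, a robust quasi-likelihood fit with 1 coefficient per group over all 11 libraries (common biological coefficient of variation 0.12), and 5 contrasts, each adjusted by Benjamini-Hochberg over 10731 genes. A standard error is the fold change divided by the square root of F. CPM are TMM-scaled, and log2 CPM carry a prior count of 2. The scripts were tested on simulated data. Alternatives were DESeq2's size factors, no count filter, DESeq2 1.42.0, limma-voom (limma 3.58.1), length offsets, a replicate block, fits of 1 batch or genotype, and each library left out. The sets without WT7 and PAD2KO7 and with low Y-linked levels only, and the filter applied without WT of batch 2, were added after the data were seen. Per-library values were given for called members, up to 25, by smallest p, and others named were chosen after their values were seen. The members, gene lists and tests were chosen with earlier results of these data known. A list of further interferon transcription factors is not reported here.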

Additional observations from a re-analysis of the deposited data

Results flagged for a closer look

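For 10 interferon-stimulated genes the PAD2KO effect differed between the batches in a direct test (edgeR's quasi-likelihood test with Benjamini-Hochberg adjustment over all genes). The values below are the effect in batch 2 minus that in batch 1 on the log2 scale. Of the transcription factors, Stat2 differed by -1.98 (SE 0.35, adjusted p = 0.0018) and Irf9 by -1.09 (SE 0.26, adjusted p = 0.029). Of the antiviral effectors, Ifit1 differed by -3.20 (SE 0.62, adjusted p = 0.020) and Oasl2 by -2.13 (SE 0.46, adjusted p = 0.022). Among the inducible GTPases the values were -2.25 for Gbp7, -1.13 for Iigp1 and -1.05 for Irgm1, with adjusted p of 0.014, 0.0046 and 0.029. The partners Parp9 and Dtx3l differed by -1.68 and -1.46, with adjusted p of 0.0066 and 0.046. Ifi44 differed most, by -3.71 (SE 0.57, adjusted p = 0.00059), and of these 10 only Ifi44 passed without PAD2KO7 (-3.31, adjusted p = 0.011). All 10 kept the sign of the difference without PAD2KO7 and without WT7.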

How the results depend on the processing

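Of the 68 calls of single members in the 5 comparisons, none changed sign in any alternative. DESeq2's size factors kept all 68. The zero calls among members in batch 1 held in every alternative run. Same-numbered libraries were not paired in the main fit. Their deviations from the group means correlated by 0.027, 0.036, 0.030 and 0.013. These values cannot show whether the libraries are paired, because centring such small groups fixes part of them. With a replicate block 23 members were called in batch 2, 20 of them among the 27, and for the difference between batches 5 members and 102 genes were called. The comparisons between batches share no replicate numbers and had no blocked fit. The causes of the changes below were not tested.

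For PAD2KO against WT in batch 1, where 12 genes were called, the count of genes was 58 with no count filter, 7 with limma-voom, 2 with length offsets, 22 with the batch fitted alone and 26 without WT7 and PAD2KO7. In batch 2 (27 members, 313 genes) it was 529 genes with no count filter, 14 members and 91 genes with length offsets, and 12 members, 59 genes and a median of -1.36 without WT7 and PAD2KO7. In the 6 libraries with low Y-linked levels the median was -1.62 with 24 members called. For the difference between batches (10 members, 155 genes) there were 22 members and 323 genes with no count filter, 2 and 26 with length offsets, 3 and 45 with a median of -1.31 without WT7 and PAD2KO7, and 76 genes in the libraries with low Y-linked levels. Between batches in WT (26 members, 2315 genes), length offsets gave 17 members and 1411 genes, and the low Y-linked libraries 1507 genes. Between batches in PAD2KO (5 members, 1863 genes), DESeq2 gave 3 members and 1111 genes, length offsets 3 and 858, and the set without WT7 and PAD2KO7 gave 2 and 1218 with a median of -0.029.

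Leaving out 1 library at a time gave, in batch 1, 0 members, 3 to 20 genes and medians of -0.14 to 0.07. In batch 2 it gave 11 to 29 members, 61 to 373 genes and medians of -2.06 to -1.54. For the difference it gave 1 to 15 members, 34 to 222 genes and medians of -1.93 to -1.47. Between batches it gave 20 to 29 members, 1815 to 2377 genes and medians of 0.93 to 1.27 in WT, and 1 to 7 members, 1074 to 1999 genes and medians of -0.82 to -0.027 in PAD2KO. The lowest counts of members came without PAD2KO7, except in WT, where they came without WT7. At these depths a member under 3 counts in a library cannot be told from 0.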
